A study of Rattus norvegicus with 6 samples.

Results

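Inflammatory mediators of cardiac fibroblasts were followed across 2 culture substrates: Il6 (ENSRNOG00000010278), Il1b (ENSRNOG00000004649) and Ptgs2 (ENSRNOG00000002525), 3 genes taken by their Ensembl rat gene ID from a table of 27108. All 3 rows were present. The cells were cardiac fibroblasts from the ventricles of neonatal rats, grown on glass for 48 hours before total RNA was extracted. In the UT group the glass carried fibronectin, an adhesive matrix protein, and in the TTR group it carried fibronectin together with fibrils of transthyretin, the plasma carrier protein that deposits as amyloid in the heart in transthyretin amyloidosis. Fibronectin was thus common to both groups, which held 3 libraries each. The sources used here do not give the rat strain, the number of animals, the source and dose of the fibrils, or whether replicates came from separate isolations. The p-values therefore measure the spread between these libraries, which may be technical. The comparison addresses whether fibril contact alters inflammatory gene expression in these cells.

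Interleukin-1 beta and interleukin-6 are secreted cytokines of the early inflammatory response. Il1b encodes an inactive precursor that is cleaved, classically by caspase-1 in the inflammasome, before the cytokine acts on the IL-1 receptor, and it is best known as a product of activated macrophages. IL-1 receptor signalling activates NF-kB and MAP kinases, which in cardiac fibroblasts can induce both Il6 and Ptgs2. IL-6 signals through its receptor and gp130 to STAT3. Ptgs2 encodes cyclooxygenase-2, the inducible enzyme that turns arachidonic acid into the precursor of prostaglandins such as prostaglandin E2.

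The sequences before the annotated starts of the 3 genes are shown because these genes are commonly grouped by shared transcription factors. Each is the 250 bases ending at the base before the start in RefSeq, build GRCr8, 5′ to 3′ on the gene's own strand, with motif matches in capitals. Il6 lies at chr4:5894576-5894825 on the minus strand, Il1b at chr3:137036582-137036831 on the minus strand, and Ptgs2 at chr13:64713813-64714062 on the plus strand.
Il6: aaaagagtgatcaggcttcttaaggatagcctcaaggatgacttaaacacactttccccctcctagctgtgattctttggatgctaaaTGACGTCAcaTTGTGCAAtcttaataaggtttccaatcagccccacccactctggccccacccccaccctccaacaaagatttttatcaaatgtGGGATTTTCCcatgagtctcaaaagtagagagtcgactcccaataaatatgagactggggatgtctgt
Il1b: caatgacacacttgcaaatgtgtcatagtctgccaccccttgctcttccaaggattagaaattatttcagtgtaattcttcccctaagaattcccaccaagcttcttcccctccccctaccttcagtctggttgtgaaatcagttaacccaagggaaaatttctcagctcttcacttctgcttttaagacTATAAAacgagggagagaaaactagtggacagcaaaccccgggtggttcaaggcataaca
Ptgs2: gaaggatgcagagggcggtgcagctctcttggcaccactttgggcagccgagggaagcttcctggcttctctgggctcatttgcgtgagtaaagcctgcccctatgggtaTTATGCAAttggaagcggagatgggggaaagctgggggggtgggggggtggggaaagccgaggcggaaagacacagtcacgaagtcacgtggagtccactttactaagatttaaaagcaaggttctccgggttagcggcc

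Letters were searched on both strands for NF-kB (GGG and TTTCC with 2 free bases between them, or GGG and TTCC with 3, forms that can overlap), AP-1 (TGANTCA), CRE (TGACGTCA, and its shorter form TGACG, which lies within it), C/EBP (TTNNGCAA) and a TATA box (TATAAA). The capitals in Il6 mark, in order, TGACGTCA, a C/EBP match TTGTGCAA and the match GGGATTTTCC to both NF-kB forms, at positions -68 to -59 from the start. Among 33469 RefSeq promoters the same 250-base window held the first NF-kB form in 1.3%, the second in 4.53%, TGACGTCA in 1.59%, TGACG in 18.2% and TTNNGCAA in 9.22%. Capitals in Il1b mark TATAAA, found in 12.9% of these windows, and those in Ptgs2 mark a C/EBP match, TTATGCAA. A further C/EBP match lay 33 to 40 bases past the Il1b start. AP-1 letters, found in 6.34% of windows, were in none of the 3 windows. These matches describe letters and not binding.

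Library totals ran from 6574199 to 11774729 counts, the largest being TTR replicate 1, and levels are therefore given as CPM, the counts in a library of 1000000 scaled by TMM (trimmed mean of M values) library factors. By a chi-square comparison of counts, UT replicates 1, 2 and 3 were closest to TTR replicates 3, 2 and 1, at 7.41, 5.69 and 5.51 per degree of freedom, while the smallest value within a group was 8.78. Libraries thus looked matched across the groups in that order. The labels do not give such a matching, its cause was not tested, and no test here used it. None of the 27108 gene IDs could be paired with a symbol by the reference table used here, so the receptors, inflammasome and prostaglandin enzymes around the 3 genes, and the markers of fibroblasts, macrophages and other heart cells, were not analysed here. The labelled cell type was therefore not checked against its markers. In such bulk RNA, more cells of a type and more RNA per cell cannot be told apart. All levels below are from the same counts, and levels are not compared between the genes because no transcript lengths were used.

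Il1b transcripts were nearly absent on fibronectin alone and were counted in all 3 libraries from the fibrils. The counts were 1, 1 and 0 in UT replicates 1, 2 and 3, and 25, 104 and 22 in TTR replicates 1, 2 and 3. In CPM these were 0.136, 0.145 and 0 on UT, against 2.15, 14.3 and 3.30 on TTR. The lowest TTR level exceeded the highest UT level, as it did for 3.75% of the 12049 genes tested. The 0 in UT replicate 3 allows a level of up to 0.444 CPM by the limit of 3 counts, and its exact two-sided 95% Poisson interval reached 0.546 CPM. The same kind of interval ran from 1.39 to 3.18 CPM in the lowest TTR library. The UT mean was 0.0938 ± 0.0813 CPM and the TTR mean 6.57 ± 6.68 CPM (SD, n = 3).

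The size of the Il1b difference is known only loosely. Over the pooled libraries, 151 counts on TTR stood against 2 on UT, a ratio of 62.0 per scaled count, with an exact 95% interval of 16.9 to 516 that covers counting error only. TTR replicate 2 carried most of these counts and stood 6.62-fold above TTR replicate 1, and their counting intervals did not overlap (11.6 to 17.3 CPM in TTR replicate 2). Without TTR replicate 2 the ratio was 27.0, with an interval of 7.07 to 229, and the mean of the remaining TTR libraries was 2.73 CPM.

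**Figure D1:**
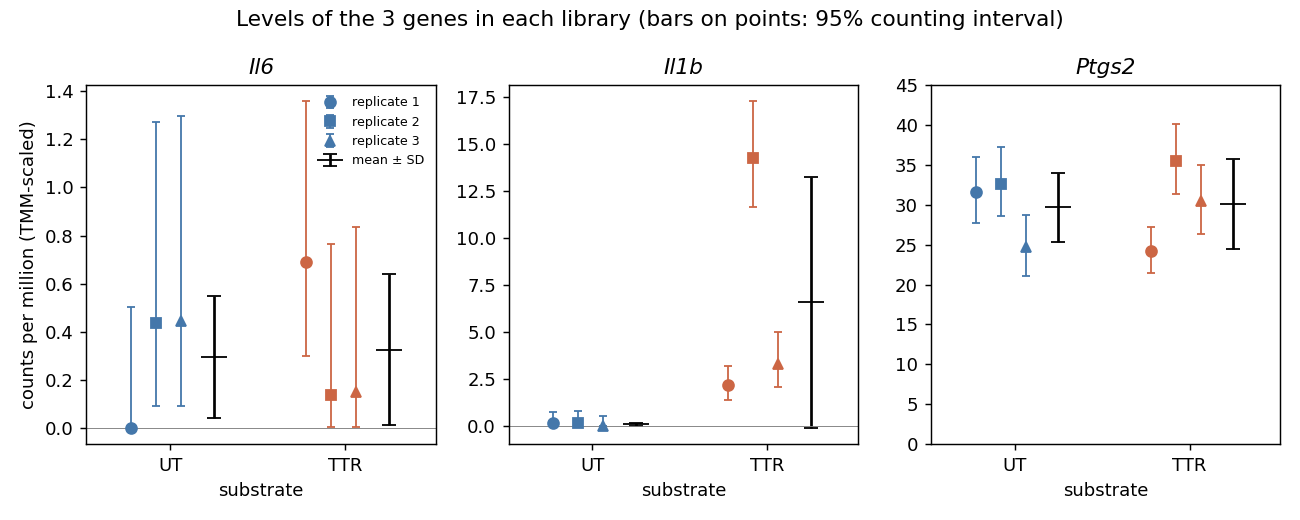
Level of Il6, Il1b and Ptgs2 in each library, in TMM-scaled CPM on a linear axis that differs between panels. Points are UT (blue) and TTR (orange) replicates with exact 95% Poisson intervals, and black marks are the mean ± SD of 3 libraries (for Il1b on TTR the SD bar reaches below 0). Il1b lies at 0 to 0.145 on UT and 2.15 to 14.3 on TTR, whereas the groups overlap for Il6 and Ptgs2.

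In the test across all genes Il1b missed the threshold. Its fitted log2 fold, TTR minus UT, was 5.86 (SE 1.12, 95% interval 3.33 to 8.39), with an unadjusted p of 0.000527 by the quasi-likelihood test of edgeR. Adjusted over all tested genes by the Benjamini-Hochberg method, the edgeR p was 0.276. That fold rests on 2 UT counts and on the prior count added in the fit, falling to 4.25 with a prior count of 2. Over all 12049 tested genes the median log2 fold was -0.0038. The row passed the low count filter through its TTR counts alone, so neither its presence among tested genes nor the place of its fold among theirs carries weight.

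The call for Il1b changed with the method. DESeq2 gave an adjusted p of 0.000394 and a log2 fold of 6.10 (SE 1.21), edgeR without the low count filter gave an adjusted p of 0.00121, and the edgeR likelihood ratio test gave 4.07e-06. With limma-voom the adjusted p was 0.400, at a log2 fold of 4.85. Leaving out each library in turn left adjusted edgeR p-values between 0.0832 (without TTR replicate 1) and 1.00 (without UT replicate 2), and the fold stayed positive throughout. Il1b was thus called in 3 of 17 alternatives. Most of these were variants of the main edgeR fit or left out a library, so the tally is not one of independent tests.

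Of the 3 genes, 2 passed the low count filter and were tested, Il1b and Ptgs2. Of these, 0 passed an adjusted p of 0.05 in the edgeR quasi-likelihood test, where 0.00830% of tested genes did. At an unadjusted p under 0.05 the count was 1, Il1b, beside 2.37% of tested genes. DESeq2, which gave Il6 no adjusted p, called 1, again Il1b, where 0.266% of genes with an adjusted p were called. Limma-voom called 0 of the 2 tested, beside 0.00830% of tested genes. Without the low count filter edgeR called 1 of the 3, beside 0.193% of genes. The edgeR likelihood ratio test also called Il1b, and it called 44 of the 12049 tested genes.

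**Figure D2:**
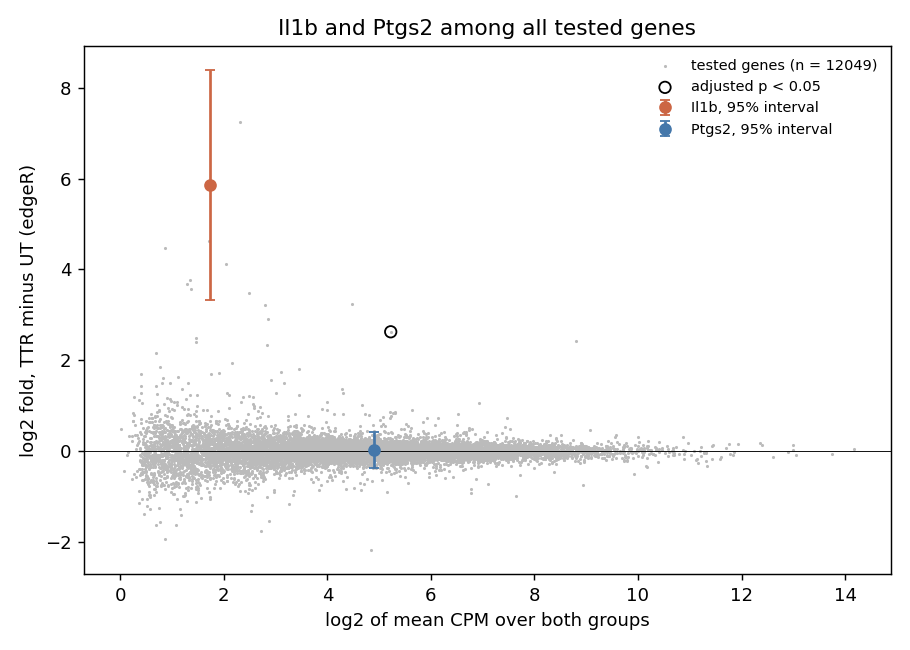
Fitted log2 fold, TTR minus UT, against the log2 of mean CPM for 12049 tested genes (grey), with the gene called at an adjusted p of 0.05 circled. Il1b (orange, 5.86) and Ptgs2 (blue, 0.01) carry 95% intervals; that of Il1b lies above 0 and rests on 2 UT counts, and that of Ptgs2 spans 0.

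Ptgs2 was readily detected on both substrates, at levels that did not separate. Counts were 232, 225 and 167 in UT replicates 1, 2 and 3 and 281, 259 and 203 in TTR replicates 1, 2 and 3. Scaled to library size, these gave 31.6, 32.7 and 24.7 CPM on UT and 24.2, 35.5 and 30.4 CPM on TTR. Both the highest and the lowest of the 6 levels were in TTR libraries, replicates 2 and 1, so the UT range lay within the TTR range. The UT mean was 29.7 ± 4.30 CPM and the TTR mean 30.0 ± 5.65 CPM (SD, n = 3).

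The Ptgs2 comparison was precise enough to bound the difference between these libraries. The log2 fold was 0.01 (SE 0.18, adjusted p = 0.999 by the edgeR quasi-likelihood test), and its 95% interval corresponds to 0.764-fold to 1.33-fold. A 2-fold difference in either direction lay outside that interval. The spread within a group, 1.32-fold between the highest and lowest UT library and 1.47-fold on TTR, was larger than the difference between the groups. This spread went with the libraries closest across groups by chi-square. UT replicates 1, 2 and 3 stood at 31.6, 32.7 and 24.7 CPM, and TTR replicates 3, 2 and 1 at 30.4, 35.5 and 24.2 CPM. The interval comes from a fit that does not use this matching. The sign of the fold turned in 4 of 17 alternatives, as is possible for a value this close to 0, and no alternative gave a call.

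Il6 stood near the limit of detection on both substrates. Its counts were 0, 3 and 3 in UT replicates 1, 2 and 3, and 8, 1 and 1 in TTR replicates 1, 2 and 3. In CPM these were 0, 0.435 and 0.444 on UT, and 0.689, 0.137 and 0.150 on TTR, so the groups overlapped. The highest level was in the most deeply sequenced library, TTR replicate 1, and the UT library without a count could have held up to 0.409 CPM by the limit of 3 counts, or 0.502 CPM by the exact two-sided 95% Poisson interval. The UT mean was 0.293 ± 0.254 CPM and the TTR mean 0.325 ± 0.315 CPM (SD, n = 3).

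With 16 counts in all, no difference in Il6 was detectable at this depth within a wide range. The pooled ratio of TTR to UT was 1.37, with an exact 95% interval of 0.450 to 4.58 that covers counting error only. The 95% intervals of fits that include the spread between libraries were wider. In log2 fold they ran from -1.74 to 2.41 by edgeR without the low count filter, and from -2.64 to 3.10 by DESeq2. Il6 did not pass the low count filter and has no value in the main test. Without the filter the edgeR log2 fold was 0.33 (SE 1.00, adjusted p = 0.999), and DESeq2 left its adjusted p undefined. The mean difference of 0.03 CPM on TTR over UT became -0.15 CPM without TTR replicate 1 and -0.11 CPM without UT replicate 1.

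**Figure D3:**
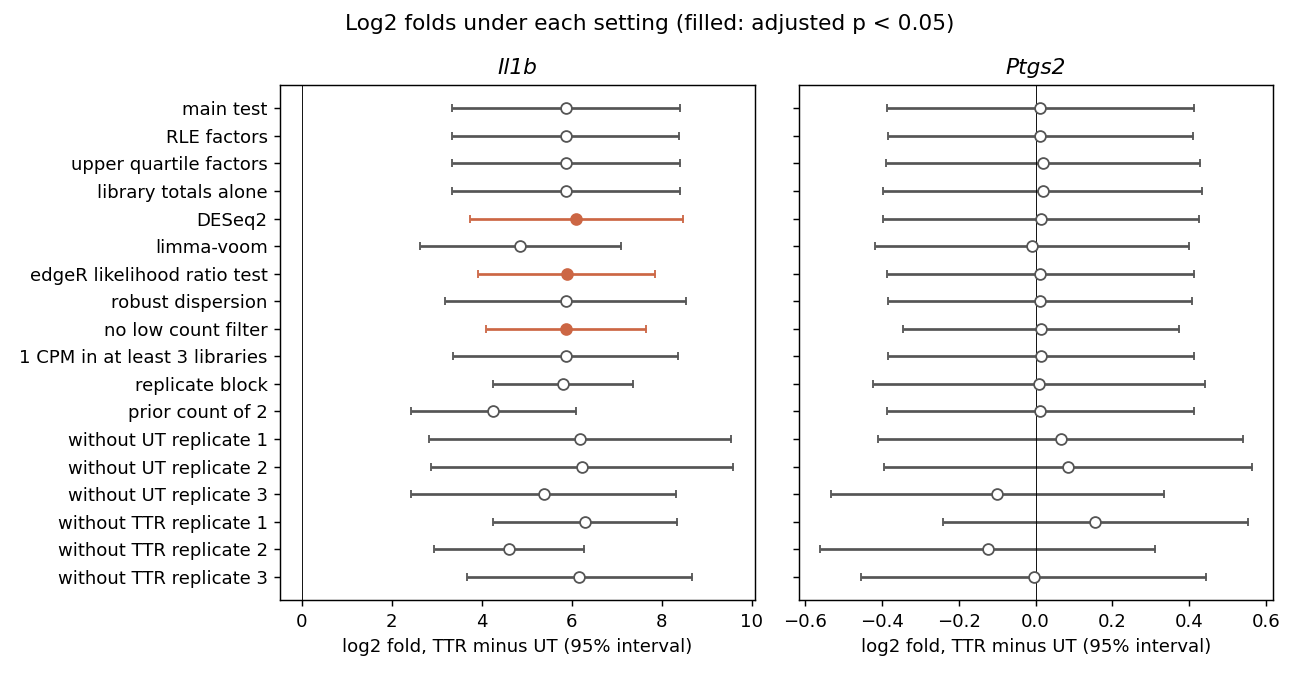
Log2 fold, TTR minus UT, with its 95% interval for Il1b (left) and Ptgs2 (right) in the main test and 17 alternatives, on axes of different range. Filled orange points passed an adjusted p of 0.05 (3 alternatives for Il1b and 0 for Ptgs2); Il1b folds lie between 4.25 and 6.29 and Ptgs2 folds between -0.12 and 0.16.

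The 3 genes did not all vary alike across libraries. Within each group, the libraries fell in the same order for Il1b and Ptgs2, with replicate 2 highest on both substrates and UT replicate 3 and TTR replicate 1 lowest, although the UT order for Il1b rests on counts of 0 and 1. Libraries at the same place in this order were also the closest across groups in the chi-square comparison of many genes. The shared order may therefore not be particular to Il1b and Ptgs2. Over the 6 libraries the log2 CPM values (prior count 2) correlated at 0.36 for Il1b with Ptgs2, and at 0.85 after the group means were removed. For Il6 the correlation was -0.14 with Il1b, or -0.53 after the group means were removed, and -0.67 with Ptgs2 by either measure. These are descriptions of 6 libraries that differ in depth and group, and those with Il6 rest on 16 counts. Il1b had only 2 counts over the UT libraries, so its correlations after the group means were removed rest mainly on the TTR libraries.

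Genes with the most similar pattern were sought by the same correlation among tested genes. For Il1b, 93 of 12048 genes reached 0.9, fewer than the median of 119 such partners over all tested genes (10th to 90th percentile 46 to 443). The first was ENSRNOG00000027761 (r = 0.996 over 6 libraries), which ran from 82.3 to 85.9 CPM in UT libraries and from 95.8 to 106.6 CPM in TTR libraries, with a log2 fold of 0.26 (SE 0.10, adjusted p = 0.999 by edgeR). Its libraries fell in the same order as those of Il1b, at a far smaller fold, but it was picked for this likeness, so the order is no separate result. All 93 genes had a fold above 0 on TTR, so the likeness includes the difference between the groups. For Ptgs2, 144 genes reached 0.9, and the first was ENSRNOG00000018237 (r = 0.994), with UT and TTR means of 281.7 and 285.3 CPM. For Il6 the count was 86, from a profile too sparse to rank single genes.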

How the data were processed

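RNA sequencing was compared between 3 UT and 3 TTR libraries. The authors deposited raw counts per Ensembl gene, in whole numbers without normalization. STAR, featureCounts, edgeR and rn6 appear in the submitters' processing notes, with no versions. How multi-mapping reads, strand and annotation were handled is not given in the sources used here, so reads of overlapping genes may be split or lost. Columns were matched to samples by description labels. The main test was the edgeR 4.0.16 (R 4.3.3) quasi-likelihood F-test, two-sided, on all 6 libraries with group as the only term, TMM factors and filterByExpr at a minimum count of 10. Genes were called at an adjusted p under 0.05 (Benjamini-Hochberg, 12049 tested genes). SEs come from the fold and F statistic. DESeq2 1.42.0, limma-voom (limma 3.58.1) and other scalings, filters and subsets were alternatives. The scripts were tested on simulated data. No 2 libraries agreed within sampling noise (smallest chi-square over degrees of freedom 5.51). Ratios of pooled counts carry exact binomial intervals, which cover counting error only. The 12 gene lists set for the pathways and cell markers (148 symbols) were not analysed because 0 IDs matched a symbol. The rule for naming genes kept the 3 members and, without symbols, the gene most correlated with a member; for Il6 none is named. The members and lists were chosen with earlier results of these data known. Promoter sequences and coordinates are from RefSeq on GRCr8, while the counts are on rn6.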

Additional observations from a re-analysis of the deposited data

How the results depend on the processing

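Limma-voom, robust dispersion, and scaling by library totals, RLE or upper quartile factors left 1 gene called among all genes, as did a prior count of 2, which was chosen after seeing the data. DESeq2 called 37 genes, the likelihood ratio test 44, no low count filter 36 and requiring 1 CPM in 3 libraries 3; leaving out 1 library gave 1 to 9, with 9 without TTR replicate 1 and 2 without UT replicate 2. The replicate number as a block gave 0 calls by the edgeR quasi-likelihood test. With the block Il1b had a log2 fold of 5.80 (adjusted p = 0.315) and Ptgs2 one of 0.01. Deviations of same-numbered libraries correlated at -0.38, 0.44 and -0.40, so the numbers were not taken as pairs. The matching of UT replicates 1, 2 and 3 with TTR replicates 3, 2 and 1, the closest by chi-square, was not fitted. Il1b kept its direction in all 17 alternatives, with log2 folds of 6.10 (DESeq2), 5.88 (likelihood ratio test) and 5.86 (no low count filter) where it passed the threshold, and of 4.60 to 6.29 with each library left out. The log2 fold of Ptgs2 turned to -0.0091 with limma-voom and ran from -0.12 (without TTR replicate 2) to 0.16 (without TTR replicate 1) with each library left out; it was -0.10 without UT replicate 3 and -0.0046 without TTR replicate 3. The mean difference of Il6 lay between -0.15 and 0.13 CPM over its 12 alternatives, a shift smaller than the SD between replicates. The cause of these changes was not tested. Counts were few for Il6 and for Il1b on UT, which limits how well these levels are known.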
